A study of Danio rerio with 53 samples.

Results

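A set of 7 genes of the B cell receptor pathway was followed across sorted zebrafish lymphocytes: syk, lyn, blk, blnk, inpp5d, ptpn6 and cd37. They were chosen by symbol, 1 row of the deposited count table for each, and make up 7 of the 14423 genes in that table. All 7 passed the filter on low counts. Across 10 sorted cell types cd37 was detected in the 5 B cell types and in none of the 5 T cell types, inpp5d and ptpn6 were detected in all 10, and the other 4 fell between these patterns.

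In the B cells of mammals, antigen binding to the receptor lets Src family kinases such as Lyn and Blk phosphorylate the receptor's CD79A and CD79B chains. Syk docks there and phosphorylates the adaptor Blnk, which brings Btk and the phospholipase Plcg2 together, while the phosphatases Inpp5d (SHIP) and Ptpn6 (SHP) restrain the signal. Cd37 is a tetraspanin of the lymphocyte surface. The roles given for the zebrafish genes below are those known from mammals.

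Bulk RNA was read from the 3-prime ends of transcripts (the QuantSeq FWD kit) in 53 libraries of lymphocytes sorted by fluorescence. The fish carried pairs of reporters, rag2:RFP or lck:mCherry with cd79a:GFP or cd79b:GFP, so that a promoter active during antigen receptor rearrangement or in T cells was combined with a promoter active in B cells. The series concerns zebrafish as a model of thymic involution, the shrinking of the thymus with age.

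Thymic B cells came from rag2RFP-cd79aGFP (3 libraries), rag2RFP-cd79bGFP (3), lckmCherry-cd79aGFP (3) and lckmCherry-cd79bGFP (2). Thymic T Stage I came from rag2RFP-cd79aGFP in 6 libraries, from 2 sorted populations. T Stage II came from both rag2 lines (6), and T Stage III and T Stage IV from lckmCherry-cd79aGFP (3 each). In the marrow, early T-committed cells came from both lck lines (6), early B-committed cells from both rag2 lines (3), B Stage I and B Stage II from both rag2 lines (6 each), and B Stage III from rag2RFP-cd79bGFP (3). The labels give no treatment and no age, and do not say whether a library held cells of 1 fish or several, so p-values measure the spread between these libraries, which may be technical. Batches are not named in the labels: a line and a batch cannot be told apart.

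Libraries held 7295854 to 18778603 counts, and a gene with no count could have stood at up to 3 counts, or 0.16 to 0.411 CPM (the count scaled by the library's total). These limits cover counting error only. Summed over 12 T cell markers, levels were 41.0 to 338 CPM in thymic B libraries and 3600 to 5240 CPM in T Stage II cells. Summed over 9 B cell markers, levels were 3960 to 15200 CPM in thymic B libraries and 570 to 2190 CPM in T Stage II cells, of which cd79b, PAX5, EBF1 and cd22 were at 0 in all T Stage II libraries; cd22 was also at 0 in all thymic B libraries. The cd79a and cd79b promoters drove the sort, so the levels of those 2 genes only check it. Libraries from bulk populations cannot tell fewer expressing cells from less RNA per cell.

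A gene was called detected in a cell type when at least 50% of its libraries had more than 3 counts. By that rule 1 member was B-restricted (cd37) and 2 were widely expressed (inpp5d and ptpn6). syk was detected in 9 cell types, all but T Stage II; lyn in 8, all but T Stages I and IV; blnk in 6, the 5 B cell types and early T-committed cells; and blk in 7, missing from early B-committed, B Stage III and thymic B cells. The split depended on the limit. At 5 CPM or more, 2 members were B-restricted (blnk joining cd37), and syk was missing from T Stage IV as well as T Stage II. When all libraries of a cell type had to pass, 3 were B-restricted (lyn as well) and 1 was widely expressed (ptpn6). With more than 0 counts as the limit, syk was detected in all 10 cell types and so was widely expressed too. Levels below are compared within a gene, never between genes.

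**Figure D1:**
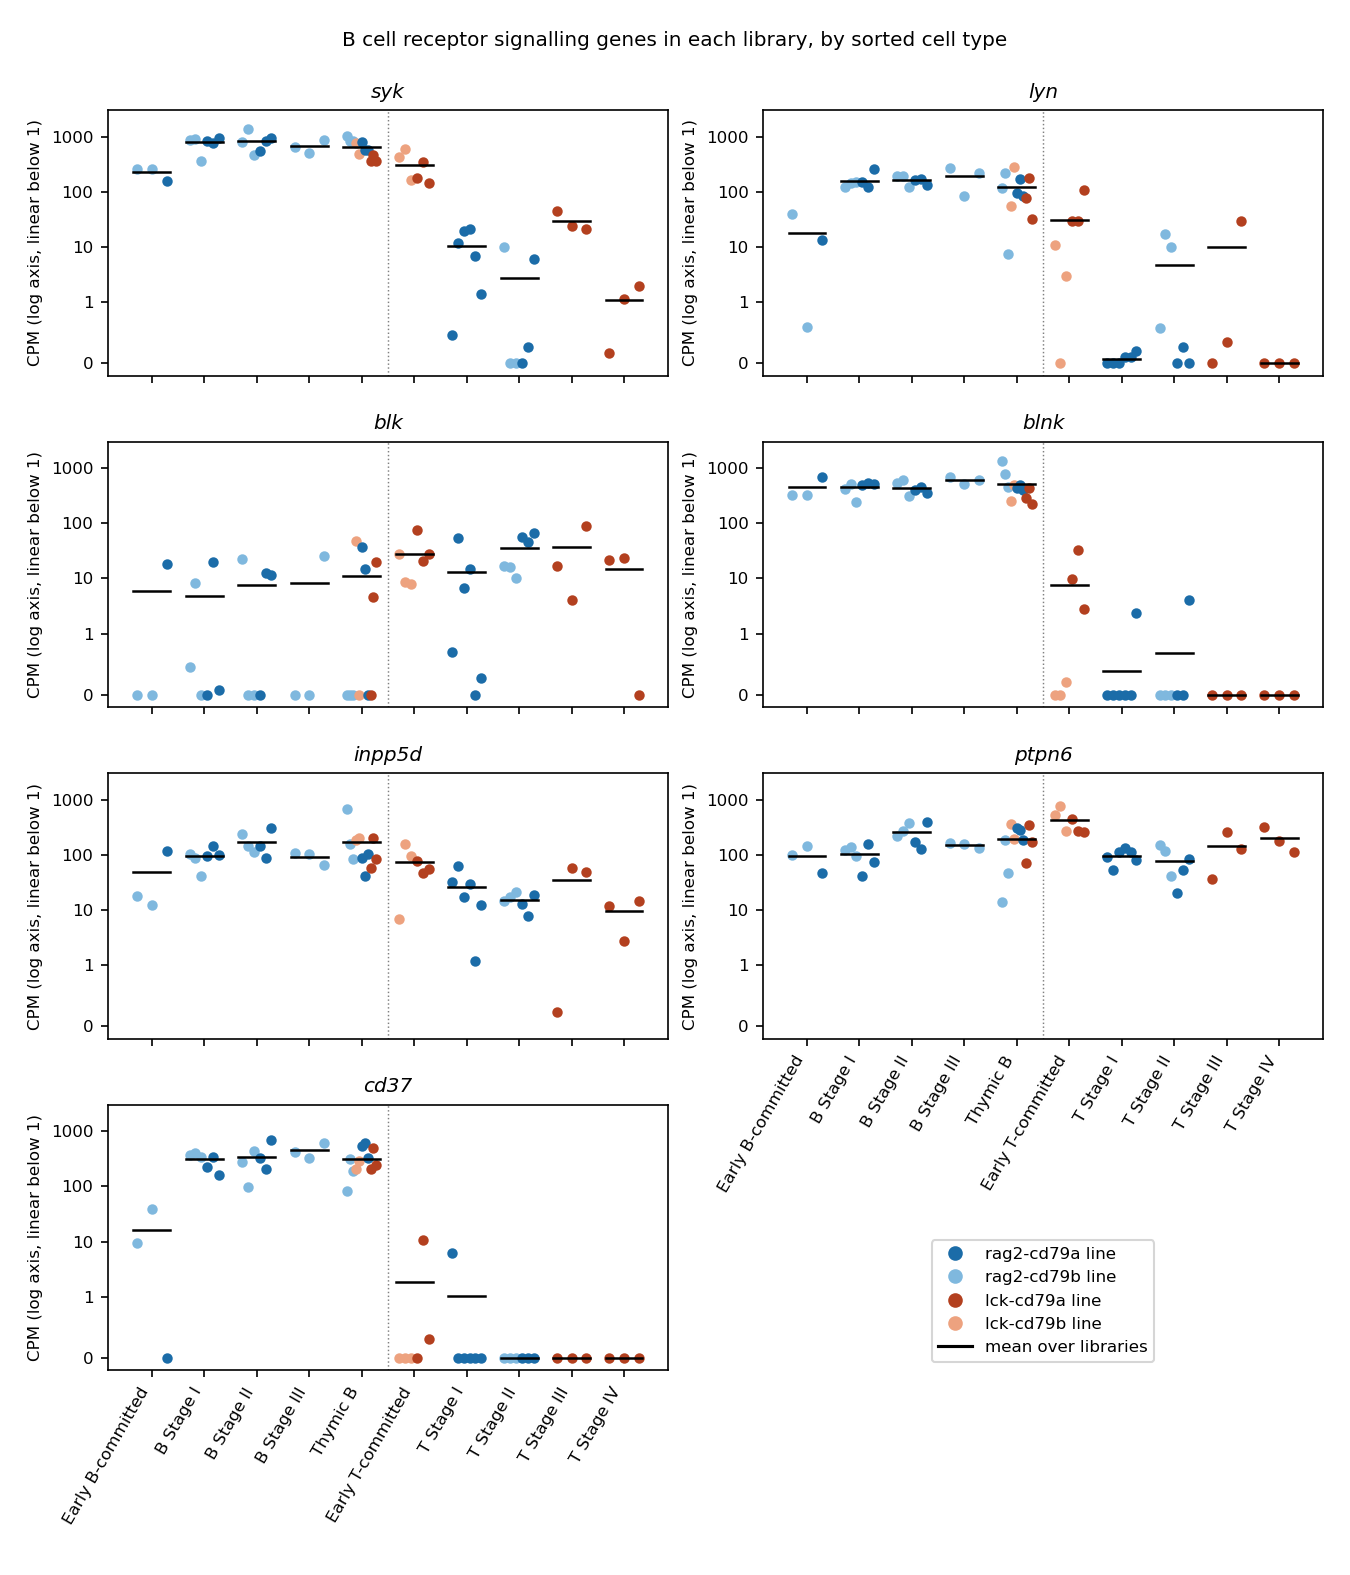
CPM of each of the 7 genes in each of the 53 libraries (points, coloured by line) by sorted cell type, on a log axis that is linear below 1, with the mean over libraries as a bar; B cell types stand left of the dotted line and T cell types right of it. cd37 and blnk drop to or near 0 in the T stages, whereas ptpn6 is above 0 in every library, from 13.8 to 774 CPM, and highest on average in early T-committed cells.

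lyn encodes the Src family kinase that acts first at the engaged receptor. Its level was 7.49 to 285 CPM over the 26 libraries of thymic B cells and B Stages I to III, with a median of 147 CPM. Over the 18 thymic T libraries it was 0 to 29.3 CPM with a median of 0.0497 CPM, and 9 of those 18 had no count. The lowest B library, thymic B replicate 6 of rag2RFP-cd79bGFP at 7.49 CPM, lay below 3 T libraries, of T Stages II and III, so the ranges overlapped at that end. Early B-committed cells had 39.0, 0.588 and 13.1 CPM, and early T-committed cells 0 to 108 CPM with a median of 19.9 CPM.

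blk encodes another Src family kinase, which in mammals is known from B cells. Here it had no B cell pattern. Its level was 0 to 47.6 CPM over the 26 libraries of thymic B cells and B Stages I to III, 13 of which had no count. In T Stage II cells it was 10.2 to 66.7 CPM with a median of 31.6 CPM, and early T-committed cells had 8.0 to 74.8 CPM with a median of 24.1 CPM. T Stage III libraries had 16.7, 4.05 and 89.8 CPM, and T Stage IV libraries 21.8, 23.2 and 0 CPM. The highest means were those of T Stage III, at 36.8 ± 46.3 CPM (SD, n = 3), and T Stage II, at 35.5 ± 24.2 CPM (SD, n = 6), and each cell type overlapped the next in the order of means. In edgeR's test blk passed in none of 15 comparisons.

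syk encodes the kinase that docks on the phosphorylated receptor. It was high in every B library of the later stages, at 354 to 1390 CPM (26 libraries, median 777 CPM), and was 155, 255 and 259 CPM in early B-committed cells. Early T-committed cells also had it, at 146 to 590 CPM with a median of 264 CPM. The thymic T stages were lower: T Stage I had 0.462 to 21.5 CPM (median 9.35 CPM), T Stage II 0 to 10.0 CPM (median 0.132 CPM), T Stage III 44.9, 23.7 and 21.3 CPM, and T Stage IV 0.165, 1.15 and 1.99 CPM. In the order of means, the gap between early B-committed cells, at 223 CPM, and T Stage III, at 30.0 CPM, was the only one between neighbours without overlap of libraries.

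blnk encodes the adaptor that Syk phosphorylates. All 29 B libraries had it: 222 to 1330 CPM in thymic B libraries and B Stages I to III (26 libraries, median 476 CPM), and 329, 329 and 691 CPM in early B-committed cells. Of the 18 thymic T libraries, 16 had no count, and the other two, in T Stages I and II, had 2.37 and 4.13 CPM. In early T-committed cells it had 9.65, 32.5 and 2.77 CPM in the 3 libraries of lckmCherry-cd79aGFP, and 0, 0 and 0.211 CPM in the 3 of lckmCherry-cd79bGFP. The 2 sets did not overlap, but no member passed in the 5 tests of a line difference, which called 0% to 0.0763% of all genes: 0.0208% for thymic B against T Stage II, 0.0139% for B Stage II against B Stage I and 0.0416% for early T-committed against thymic B cells (adjusted p = 0.109 for blnk, early T-committed against thymic B cells).

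inpp5d encodes a lipid phosphatase that removes a product of PI3 kinase and so dampens receptor signals. It had a count in all 53 libraries. Thymic B cells and B Stages I to III had 41.3 to 666 CPM (26 libraries, median 103 CPM), and the 18 thymic T libraries had 0.229 to 63.6 CPM (median 15.9 CPM). The highest library, replicate 4 of thymic B cells in rag2RFP-cd79bGFP at 666 CPM, stood above the next thymic B library at 206 CPM, and it detected the fewest genes of all libraries, 3803. Early B-committed cells had 18.1, 12.1 and 117 CPM.

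ptpn6 encodes a protein tyrosine phosphatase of blood cells that acts on inhibitory receptors' signals. It was above 3 counts in all 53 libraries, at 13.8 to 387 CPM in thymic B libraries and B Stages I to III (26 libraries, median 169 CPM) and 20.6 to 324 CPM in the thymic T stages (18 libraries, median 113 CPM). The highest mean was that of early T-committed cells, 427 ± 202 CPM (SD, n = 6), and the lowest that of T Stage II, 77.8 ± 49.1 CPM (SD, n = 6). Each cell type overlapped the next in the order of means.

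cd37 encodes the tetraspanin. Thymic B cells and B Stages I to III had 83.5 to 708 CPM (26 libraries, median 326 CPM), none at 0. Early B-committed cells were far lower, at 9.52, 39.1 and 0 CPM. Of the 18 thymic T libraries 17 had no count, and 1 library of T Stage I had 6.24 CPM. Early T-committed cells had 10.8 and 0.308 CPM in 2 libraries and no count in 4.

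Thymic B cells were compared with thymic T cells of the same line, which asks how the sorted B and T populations differ. Against T Stage II, in both rag2 lines, 5 of the 7 members rose in thymic B cells and 0 fell, where 3.66% of all genes rose and 6.32% fell. The call is an adjusted p under 0.05 in edgeR's quasi-likelihood test, adjusted by Benjamini-Hochberg over all 14423 genes. Where several lines were compared, the log2 fold is the mean of the log2 folds within each line. It can thus differ from the ratio of pooled means, most of all where a line is at 0. The SE beside a log2 fold was derived, as the size of the log2 fold divided by the square root of the test's F. The median log2 fold of all genes was -0.99, so folds near that value are those of a typical gene.

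syk had 785, 574 and 577 CPM in thymic B cells of rag2RFP-cd79aGFP and 1020, 828 and 826 CPM in those of rag2RFP-cd79bGFP, against 0 to 10.0 CPM in T Stage II. The groups did not overlap, and the log2 fold was 8.32 (SE 0.59, adjusted p = 3.61e-29). Leaving out 1 T Stage II library, replicate 1 of rag2RFP-cd79bGFP, raised it to 12.31, and leaving out replicate 26 of rag2RFP-cd79aGFP to 10.42.

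blnk had 438, 488 and 399 CPM in thymic B cells of rag2RFP-cd79aGFP and 1330, 798 and 464 CPM in those of rag2RFP-cd79bGFP, against 4.13 CPM in 1 of 6 T Stage II libraries and no count in the other five. The log2 fold was 12.31 (SE 0.89, adjusted p = 1.94e-29), and without that T Stage II library, replicate 26, blnk was at least 2370-fold higher.

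cd37 had 532, 607 and 331 CPM in thymic B cells of rag2RFP-cd79aGFP and 83.5, 318 and 194 CPM in those of rag2RFP-cd79bGFP, against no count in all 6 T Stage II libraries. It was at least 1300-fold higher, taking 3 counts per library as the limit for T Stage II (adjusted p = 8.23e-22).

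lyn rose too, at 116 ± 74.1 CPM in thymic B libraries and 4.69 ± 7.33 CPM in T Stage II (SD, n = 6 each), with a log2 fold of 7.15 (SE 1.04, adjusted p = 7.03e-09), although 1 thymic B library overlapped the T range. Without replicate 25 of T Stage II its log2 fold was 8.56. inpp5d had 190 ± 236 CPM in thymic B libraries and 15.3 ± 4.61 CPM in T Stage II (SD, n = 6 each), a log2 fold of 3.41 (SE 0.61, adjusted p = 4.79e-06) that was 2.78 (adjusted p = 0.00044) without thymic B replicate 4.

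ptpn6 and blk did not pass. ptpn6 had 170 ± 120 CPM in thymic B libraries and 77.8 ± 49.1 CPM in T Stage II (SD, n = 6 each), a log2 fold of 1.12 (SE 0.46, adjusted p = 0.106); it passed with median-ratio size factors (adjusted p = 0.0416), with DESeq2 (adjusted p = 0.0159), without thymic B replicate 4 (adjusted p = 0.0465) and without T Stage II replicate 26 (adjusted p = 0.0499). blk had 8.64 ± 15.0 CPM in thymic B cells, where 4 of 6 libraries were at 0, and 35.5 ± 24.2 CPM in T Stage II (SD, n = 6 each), with a log2 fold of -5.89 (SE 2.42, adjusted p = 0.109); DESeq2 called it lower (adjusted p = 3.18e-09).

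Against T Stage I, in rag2RFP-cd79aGFP alone, 6 of 7 members rose in thymic B cells, where 3.59% of all genes rose, 1.93% fell and the median log2 fold was -0.44. syk had 645 ± 121 CPM in thymic B cells (n = 3) and 10.2 ± 8.92 CPM in T Stage I (SD, n = 6), a log2 fold of 6.27 (SE 0.53, adjusted p = 7.71e-22). lyn had 115 ± 48 CPM in thymic B cells (n = 3) and 0 to 0.204 CPM in T Stage I, no more than 3 counts in any library. Its log2 fold of 11.67 (adjusted p = 5.38e-10) rests on T Stage I levels within the limit for a gene with no count. The size of that fold is thus not measured. blnk (log2 fold 12.24, adjusted p = 5.31e-26) and cd37 (12.00, adjusted p = 1.16e-21) each had counts in 1 of 6 T Stage I libraries, replicates 32 and 27. The level of T Stage I was the mean of its 2 sorted populations on the log scale. For each of these genes 1 population was at 0, so the 2 log2 folds are not measured sizes. Without those libraries T Stage I had no count, and the genes were at least 1430-fold and 1740-fold higher in thymic B cells.

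The 2 phosphatases passed by little. ptpn6 had 312, 279 and 185 CPM in thymic B cells, against 52.5 to 131 CPM in T Stage I (median 102 CPM), with no overlap and a log2 fold of 1.69 (SE 0.52, adjusted p = 0.0312). Leaving out a library ended that call 7 times in 9, the highest adjusted p being 0.127 without thymic B replicate 34, and with the older edgeR method (adjusted p = 0.11). inpp5d had 88.5, 41.3 and 102 CPM in thymic B cells, against 1.19 to 63.6 CPM in T Stage I (median 23.4 CPM), with overlap and a log2 fold of 2.10 (SE 0.69, adjusted p = 0.0466). The same step ended that call 6 times in 9, the highest adjusted p being 0.251 without thymic B replicate 35, and with TMMwsp scaling (adjusted p = 0.0522) and the older edgeR method (adjusted p = 0.176).

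**Figure D2:**
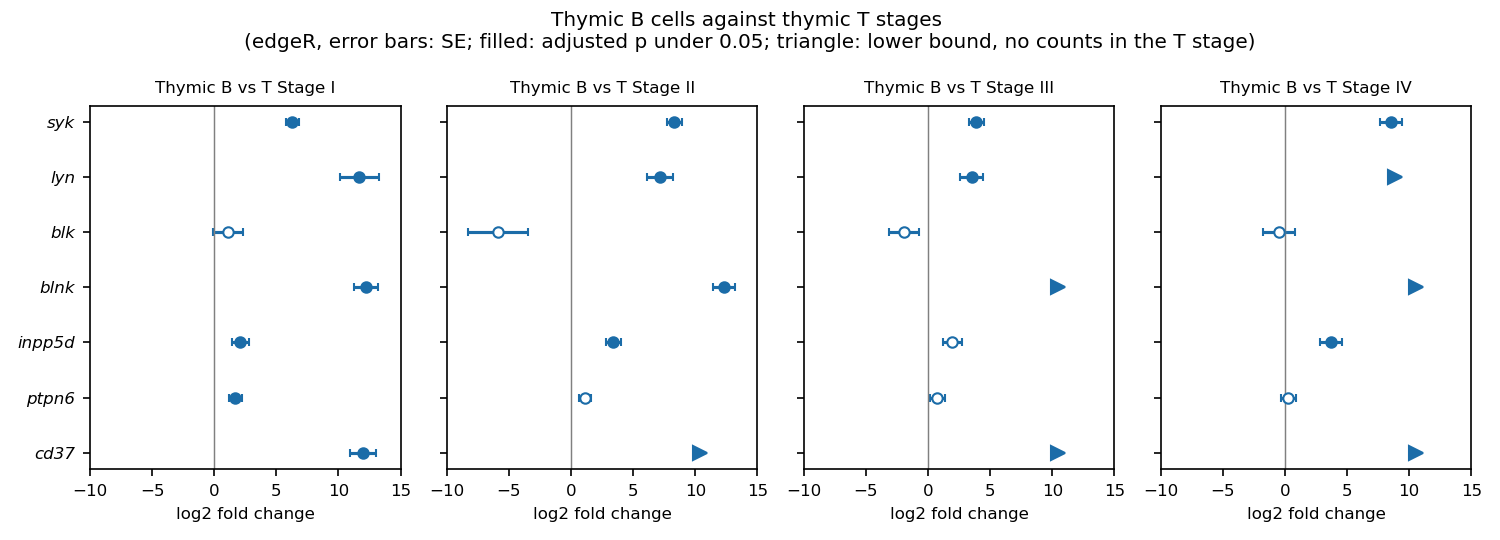
Log2 fold changes of the 7 genes in thymic B cells against T Stages I to IV (panels), from edgeR's quasi-likelihood test with SE bars; filled points passed an adjusted p of 0.05, open points did not, and triangles mark lower bounds where the T stage had no counts. syk, lyn, blnk and cd37 lie right of 0 and filled in all 4 panels, and blk is open in all 4.

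T Stages III and IV were sorted in lckmCherry-cd79aGFP, and were set against thymic B cells of that line (3 libraries a group). Against T Stage III, 4 of 7 members rose, where 1.06% of all genes rose and 0.61% fell. syk had 365, 456 and 359 CPM in thymic B cells, against 44.9, 23.7 and 21.3 CPM in T Stage III, a log2 fold of 3.90 (SE 0.61, adjusted p = 7.29e-07) that did not pass with the older edgeR method (adjusted p = 0.406), an alternative chosen after seeing the data. blnk (284, 444 and 222 CPM in thymic B cells) and cd37 (209, 504 and 242 CPM) were at 0 in all 3 T Stage III libraries and were each at least 1440-fold higher. Their adjusted p were 4.56e-15 and 5.32e-12.

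lyn had 77.7, 175 and 31.8 CPM in thymic B cells, against 0, 0.343 and 29.3 CPM in T Stage III, with a log2 fold of 3.51 (SE 0.93, adjusted p = 0.0169). The single T Stage III library with 29.3 CPM, replicate 47, held most of that group's counts: without it the log2 fold was 9.15, and without replicate 46 it was 2.87 and did not pass (adjusted p = 0.248). The call was also lost without T Stage III replicate 45 (adjusted p = 0.172) or thymic B replicate 52 (log2 fold 2.85, adjusted p = 0.188), with DESeq2 (adjusted p = 0.0625) and with the older edgeR method (adjusted p = 0.449).

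Against T Stage IV, 5 of 7 members rose in thymic B cells, where 1.44% of all genes rose and 0.679% fell. lyn, blnk and cd37 were at 0 in all 3 T Stage IV libraries and were at least 452-fold, 1510-fold and 1520-fold higher in thymic B cells; the bound of lyn was 261-fold without thymic B replicate 52. syk had 365, 456 and 359 CPM in thymic B cells, against 0.165, 1.15 and 1.99 CPM in T Stage IV, a log2 fold of 8.56 (SE 0.88, adjusted p = 1.55e-15), which was 9.62 without T Stage IV replicate 50. inpp5d had 58.7, 199 and 82.4 CPM in thymic B cells, against 11.8, 2.74 and 14.3 CPM in T Stage IV, a log2 fold of 3.69 (SE 0.88, adjusted p = 0.00367). That call was lost without T Stage IV replicate 49 (adjusted p = 0.0754) or thymic B replicate 52 (log2 fold 3.10, adjusted p = 0.0652), and with the older edgeR method (adjusted p = 0.104), and the log2 fold was 4.47 without T Stage IV replicate 50. ptpn6 had 199 ± 141 CPM in thymic B libraries and 205 ± 108 CPM in T Stage IV (SD, n = 3 each), a log2 fold of 0.27 (SE 0.61, adjusted p = 1). These comparisons share their thymic B libraries within a line.

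In the same T cells part of the receptor pathway of the T lineage ran the other way. Of 13 matched genes of proximal T cell receptor signalling, 6 fell and 1 rose in thymic B cells against T Stage II. Of all genes 6.32% fell and 3.66% rose. The median log2 fold was -3.28 in the list and -0.99 over all genes. The kinase ZAP70, the T lineage relative of syk, had 1.78 ± 2.39 CPM in thymic B libraries and 249 ± 96.8 CPM in T Stage II (SD, n = 6 each), a log2 fold of -7.57 (SE 0.86, adjusted p = 8.87e-14). The Src family kinase lck, whose promoter drives the reporter of the other lines, had 6.11 ± 10.1 CPM in thymic B libraries and 276 ± 104 CPM in T Stage II (SD, n = 6 each), a log2 fold of -5.40 (adjusted p = 1.39e-10). The adaptor lat (log2 fold -9.21, adjusted p = 1.9e-09) and the phospholipase PLCG1 (-2.60, adjusted p = 2.05e-07) also fell.

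Markers of myeloid cells, which in mammals express INPP5D and LYN as well, differed between the same libraries. The whole list of 18 myeloid rows summed to 1300 to 2530 CPM in the 6 thymic B libraries of the rag2 lines and 62.8 to 260 CPM in T Stage II. Of the 18, 4 rose and 0 fell, where 3.66% of all genes rose and 6.32% fell. SPI1, MPEG1 and NCF1 of that list averaged 508, 444 and 457 CPM in those thymic B libraries. The granulocyte genes lyz and npsn averaged 2.74 ± 6.21 and 12.1 ± 28.4 CPM there (SD, n = 6) and were at 0 in all T Stage II libraries. Across all 11 thymic B libraries SPI1 was 313 to 670 CPM, NCF1 174 to 671 CPM and MPEG1 29.3 to 835 CPM, while csf1ra was above 3 counts in 1. Whether this RNA came from the B cells or from other cells was not tested. The part of other cells in the lyn and inpp5d differences was not tested either.

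Of 47 matched other genes of the B cell receptor pathway, 14 rose and 1 fell in thymic B cells against T Stage II. Of all genes 3.66% rose and 6.32% fell. The median log2 fold was 0.53 in the list and -0.99 over all genes. The receptor chain cd79a, which the sort selected, had 593 ± 222 CPM in thymic B libraries and 2.34 ± 5.50 CPM in T Stage II (SD, n = 6 each). The exchange factor VAV2 had 260 ± 247 CPM in thymic B libraries and 5.31 ± 7.09 CPM in T Stage II (log2 fold 5.94, SE 0.77, adjusted p = 6.91e-11). The Csk-binding adaptor pag1 (log2 fold 8.14, SE 1.16, adjusted p = 2.74e-09) and the NF-kB inhibitor nfkbiab (2.41, SE 0.35, adjusted p = 9.67e-09) rose as well. The single gene that fell, VAV3, a paralog of VAV2, had no count in the 6 thymic B libraries and 40.7 ± 26.6 CPM in T Stage II (SD, n = 6); it was named for being the only one after its values were seen. Against T Stages I, III and IV, 11, 7 and 9 of the 47 rose and 1, 0 and 1 fell, where 3.59%, 1.06% and 1.44% of all genes rose and 1.93%, 0.61% and 0.679% fell. The list holds cd79a and cd79b, whose promoters drove the sort, and CSK, which is also on the T cell receptor list.

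**Figure D3:**
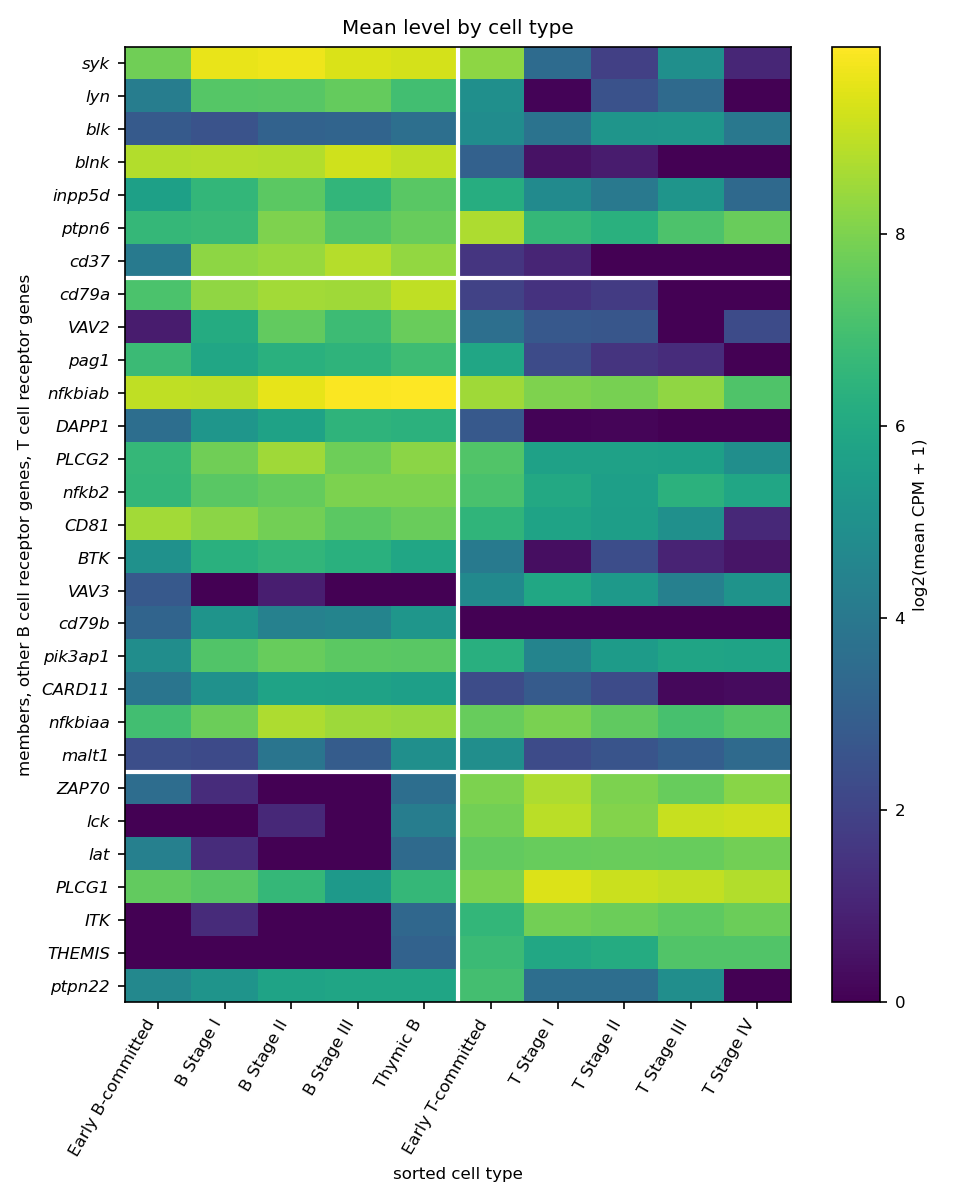
Mean level, as log2 of mean CPM plus 1, in each of the 10 cell types (columns, B cell types left) for the 7 genes (top block), the 15 other B cell receptor genes that passed in thymic B cells against T Stage II (middle) and the 7 T cell receptor genes that passed there (bottom). The rows were picked by that test, so their contrast between thymic B and T Stage II is given; blk is the member whose row is darker in the B columns.

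Of 9 matched tetraspanins, cd37 included, 3 rose in thymic B cells against T Stage II and 0 fell, where 3.66% of all genes rose and 6.32% fell; the median log2 fold was 1.30 in the list and -0.99 over all genes. Beside cd37 these were CD81, a part of the B cell co-receptor in mammals, and 1 of 2 rows named CD82. CD81 had 227 ± 140 CPM in thymic B libraries and 46.2 ± 22.3 CPM in T Stage II (SD, n = 6 each), a log2 fold of 2.52 (SE 0.50, adjusted p = 4.49e-05). The CD82 row had 21.6 ± 36.4 CPM in thymic B libraries and 1.81 ± 4.44 CPM in T Stage II (SD, n = 6 each, adjusted p = 0.0362).

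The marrow stages ask how the pathway is laid down along the B lineage. From early B-committed cells to B Stage I, 3 of 7 members rose and 0 fell, where 0.582% of all genes rose and 0.471% fell; the median log2 fold of all genes was 1.07, and B Stage I libraries detected 8892 to 10562 genes against 6534 to 8435 in early B-committed cells. cd37 had 158 to 412 CPM in B Stage I (6 libraries, median 343 CPM), against 9.52, 39.1 and 0 CPM in early B-committed cells. The groups did not overlap, and the log2 fold was 9.28 (SE 1.53, adjusted p = 6.26e-06). It was 4.06 (adjusted p = 0.00418) without the 1 early B-committed library of rag2RFP-cd79aGFP, the one at 0, and 9.88 without early B-committed replicate 8; the older edgeR method did not call it (adjusted p = 0.174).

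syk had 354 to 949 CPM in B Stage I (6 libraries, median 863 CPM), against 255, 259 and 155 CPM in early B-committed cells, with a log2 fold of 2.03 (SE 0.55, adjusted p = 0.0277). lyn had 121 to 262 CPM in B Stage I (6 libraries, median 147 CPM), against 39.0, 0.588 and 13.1 CPM in early B-committed cells, with a log2 fold of 3.33 (SE 0.93, adjusted p = 0.0407). Neither gene's groups overlapped, but both calls were fragile. The call of syk was lost in 4 of 9 fits without 1 library, with an adjusted p of 0.293 without early B-committed replicate 36, with DESeq2 (adjusted p = 0.191), with TMMwsp scaling (adjusted p = 0.0521) and with the older edgeR method (adjusted p = 0.693). The call of lyn was lost in 5 of 9, with an adjusted p of 0.22 without that same library, and its log2 fold was 5.96 without early B-committed replicate 7. It was also lost with median-ratio factors (adjusted p = 0.0535), TMMwsp (0.0639) and the older edgeR method (0.693).

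blnk, already present in early B-committed cells, did not pass: it had 457 ± 110 CPM in B Stage I (n = 6) and 450 ± 209 CPM in early B-committed libraries (SD, n = 3), with a log2 fold of 0.00 (SE 0.49, adjusted p = 1). Whether blnk differed from the median gene, whose log2 fold was 1.07, was not tested. inpp5d (log2 fold 1.22, SE 0.75, adjusted p = 0.7) and ptpn6 (0.58, SE 0.60, adjusted p = 0.934) did not pass. Markers of other marrow cells were examined in the same groups. The 9 erythroid and thrombocyte markers summed to 358 to 3120 CPM in B Stage I and 1920 to 9900 CPM in early B-committed cells. These ranges overlapped, and of the 9 rows 0 rose and 0 fell. The macrophage receptor marco was 0 to 24.9 CPM in B Stage I and 5.48 to 309 CPM in early B-committed cells. NCF1, also on the myeloid list, stood the other way, at 348 to 548 CPM in B Stage I and 35.9 to 102 CPM in early B-committed cells. Of the 18 myeloid rows, 2 rose and 0 fell in B Stage I, where 0.582% of all genes rose and 0.471% fell. Those 18 summed to 863 to 2180 CPM in B Stage I and 1040 to 2250 CPM in early B-committed cells. The 17 kidney tubule markers summed to 351 to 2520 CPM in B Stage I and 172 to 577 CPM in early B-committed cells, and 3 of them rose and 1 fell. The part of these cells in the syk, lyn and cd37 differences was not tested.

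Among the later B stages and thymic B cells no member was called. None passed in B Stage II against B Stage I, where 1.12% of all genes did, between B Stages III and II (0.0277% of all genes), in thymic B cells against B Stage II (1.32%) or in thymic B cells against B Stage III (1.07%). The numbers of genes called in the last 2 comparisons, 191 and 155, ranged from 94 to 205 and from 37 to 186 without 1 library. The standard errors of the syk and blnk log2 folds ran from 0.37 to 0.55 in these comparisons, so small differences were not detectable. DESeq2 called blk lower in thymic B cells against B Stages II and III. There blk had no count in many libraries, among them 3 of 6 of B Stage II and 2 of 3 of B Stage III. The call against B Stage III thus rested on 1 library of B Stage III, at 25.0 CPM. ptpn6 had 258 ± 106 CPM in B Stage II and 106 ± 44.1 CPM in B Stage I (SD, n = 6 each). Its log2 fold was 1.36 in edgeR's test (SE 0.44, adjusted p = 0.117). ptpn6 passed when only the groups compared were fitted (adjusted p = 0.00737) and with DESeq2 (adjusted p = 0.033). cd37 had 83.5, 318 and 194 CPM in thymic B cells of rag2RFP-cd79bGFP, against 430, 329 and 613 CPM in B Stage III, with a log2 fold of -1.44 (SE 0.64, adjusted p = 0.21).

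**Figure D4:**
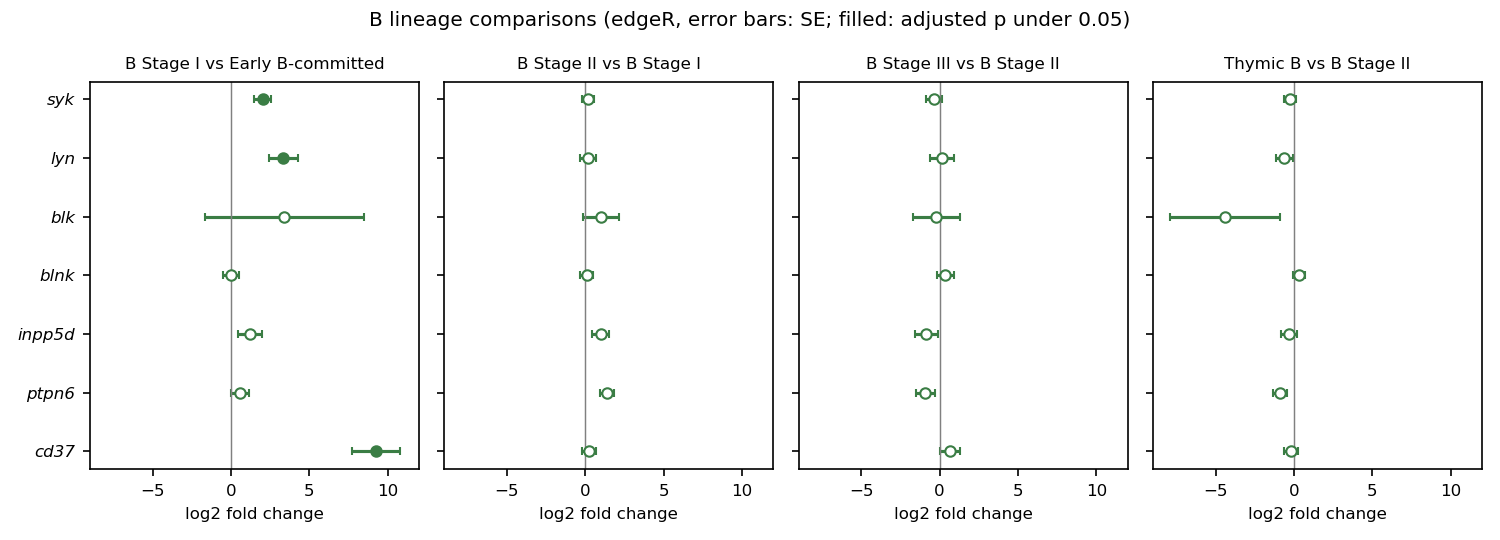
Log2 fold changes of the 7 genes, with SE bars, between successive marrow B stages and in thymic B cells against B Stage II (panels), from edgeR's quasi-likelihood test; filled points passed an adjusted p of 0.05. Filled points appear only in the first panel, for syk, lyn and cd37, and the bars of blk, which has many libraries at 0, are the longest.

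Early T-committed cells of the marrow had all 7 members in at least 1 library. Set against thymic B cells of the lck lines, 3 of 7 members fell and 0 rose, where 3.52% of all genes fell and 2.39% rose. blnk had 0 to 32.5 CPM in early T-committed cells (6 libraries, median 1.49 CPM), against 256, 490, 284, 444 and 222 CPM in thymic B cells, a log2 fold of -8.44 (SE 0.76, adjusted p = 1.71e-20). cd37 had 1.86 ± 4.40 CPM in early T-committed cells (n = 6) and 289 ± 125 CPM in thymic B libraries (SD, n = 5), a log2 fold of -10.53 (SE 1.01, adjusted p = 3.75e-18). Without early T-committed replicate 55, the highest for both genes, these log2 folds were -9.09 and -12.83, and without replicate 23 that of blnk was -9.83.

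lyn fell as well, with 30.0 ± 40.1 CPM in early T-committed cells (n = 6) and 125 ± 105 CPM in thymic B libraries (SD, n = 5), a log2 fold of -3.30 (SE 0.71, adjusted p = 0.000378). The ranges overlapped, and the call was lost without thymic B replicate 20 (log2 fold -2.35, adjusted p = 0.0786) and with the older edgeR method (adjusted p = 0.0755); without early T-committed replicate 21 the log2 fold was -4.01. syk did not pass: it had 146 to 590 CPM in early T-committed cells (6 libraries, median 264 CPM), against 769, 481, 365, 456 and 359 CPM in thymic B cells, with overlap and a log2 fold of -1.01 (SE 0.40, adjusted p = 0.118). ptpn6 had 427 ± 202 CPM in early T-committed cells (n = 6) and 230 ± 124 CPM in thymic B libraries (SD, n = 5), a log2 fold of 0.58 (SE 0.46, adjusted p = 0.675).

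Early T-committed libraries also carried markers of other marrow cells. The 18 myeloid rows summed to 608 to 4540 CPM there, with 8 to 15 of them detected per library, and the granulocyte and macrophage genes lyz and marco ran at 24.1 to 1040 and 14.2 to 241 CPM. In thymic B cells lyz was 0 to 15.4 CPM and marco 0 to 11.6 CPM. SPI1 and NCF1 of the same list stood the other way. They had 1.85 to 125 and 0 to 104 CPM in early T-committed cells and 313 to 670 and 174 to 671 CPM in thymic B cells. Against thymic B cells of the lck lines, 5 of the 18 rows rose and 4 fell in early T-committed cells. Of all genes 2.39% rose and 3.52% fell there. The 9 erythroid and thrombocyte markers summed to 1280 to 17700 CPM in early T-committed cells. In thymic B cells of the lck lines they summed to 36.8 to 1650 CPM. Against those thymic B cells 4 of the 9 rose and 0 fell in early T-committed cells. The 17 kidney tubule markers summed to 340 to 864 CPM in early T-committed cells and 18.5 to 163 CPM in those thymic B cells. Here 5 of the 17 rose and 0 fell in early T-committed cells, where 2.39% of all genes rose. T cell markers summed to 466 to 2340 CPM in early T-committed cells, with 9 to 12 of the 12 detected per library. The 9 B cell markers summed to 2140 to 5120 CPM in early T-committed cells, with 2 to 7 detected per library. Most of that sum was cd74a, at 2190 ± 744 CPM, and cd74b had 798 ± 337 CPM (SD, n = 6 each). IRF8 was 0 to 113 CPM and bcl6ab 0 to 83.4 CPM, beside 0 to 82.7 CPM of bcl6ab over all thymic B libraries. The others were lower: cd22 was 0 to 22.5 CPM, EBF1 0 to 18.0, cd79a 0 to 17.2 and PAX5 0 to 5.89 CPM, and cd79b was at 0. Replicate 55, the highest for blnk and cd37, detected 7 of the 9. Against thymic B cells of the lck lines 6 of the 9 fell, where 3.52% of all genes fell. Myeloid cells of mammals express SYK, LYN, INPP5D and PTPN6. The part of myeloid or B cells in the early T-committed levels was not tested.

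Against early B-committed cells, a comparison across lines in which the line difference in thymic B cells was subtracted, blnk fell (log2 fold -8.02, SE 0.98, adjusted p = 9.06e-11) and was the only one of 7 members called, where 1.81% of all genes fell and 0.811% rose. It had 0 to 32.5 CPM in early T-committed cells and 329, 329 and 691 CPM in early B-committed cells. Without early T-committed replicate 23 or 55 its log2 fold was -9.44 or -8.70. syk (0.98, SE 0.64, adjusted p = 0.787) and ptpn6 (1.63, SE 0.77, adjusted p = 0.375) did not pass, though DESeq2 called ptpn6 higher (log2 fold 1.91, adjusted p = 0.0479). Without early B-committed replicate 36, the library with no count of cd37, cd37 was called lower as well (log2 fold -6.79, adjusted p = 0.013).

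Thymic T Stage III fell below early T-committed cells of the same line for 2 members, syk and blnk, where 0.596% of all genes fell and 0.444% rose. syk had 44.9, 23.7 and 21.3 CPM in T Stage III, against 177, 352 and 146 CPM in early T-committed cells, a log2 fold of -2.82 (SE 0.59, adjusted p = 0.00195) that did not pass with DESeq2 (adjusted p = 0.059) or the older edgeR method (adjusted p = 0.418). blnk had no count in T Stage III, against 9.65, 32.5 and 2.77 CPM in early T-committed cells, and was at least 67.8-fold lower (adjusted p = 0.00623). That call was lost without early T-committed replicate 55 (a bound of 28.1-fold, adjusted p = 0.188), without T Stage III replicate 46 (adjusted p = 0.0718), and when only the groups compared were fitted (adjusted p = 0.26). The 18 myeloid rows summed to 213 to 628 CPM in T Stage III and 959 to 2530 CPM in early T-committed cells of this line. The 9 B cell markers summed to 1620 to 2580 CPM in T Stage III and 2530 to 5120 CPM in those early T-committed cells. Of these 9, 1 fell, and their median log2 fold was -6.83 beside 0 for all genes. That median is not a measured size, since several of the rows were at 0 in T Stage III. Among these cd79a, PAX5 and EBF1 averaged 2.94, 1.03 and 2.99 CPM over the 6 early T-committed libraries of both lck lines. In the other lists, 2 of the 18 myeloid, 3 of the 9 erythroid and thrombocyte and 3 of the 17 kidney tubule rows fell. In each of these 0 rose, where 0.596% of all genes fell and 0.444% rose. The part of myeloid, B or other marrow cells in the syk and blnk differences was not tested.

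Within the thymic T stages, 1 member moved. From T Stage III to T Stage IV, syk fell, 1 of the 11 genes (0.0763% of all) called there, all of them lower. It had 0.165, 1.15 and 1.99 CPM in T Stage IV, against 44.9, 23.7 and 21.3 CPM in T Stage III, with no overlap and a log2 fold of -4.67 (SE 0.94, adjusted p = 0.00393). The call was lost without T Stage III replicate 45 (adjusted p = 0.0536) or T Stage IV replicate 48 (adjusted p = 0.125) or 49 (adjusted p = 0.136), and its log2 fold was -5.72 without replicate 50. It was also lost when only the 2 groups were fitted (adjusted p = 0.419) and with the older edgeR method (adjusted p = 0.601). The 18 myeloid rows summed to 95.1, 89.7 and 22.5 CPM in T Stage IV and 213, 628 and 359 CPM in T Stage III. Of the 18, 0 rose and 0 fell, and their median log2 fold was -1.55 beside 0 for all genes. Among them MPEG1 was 1.32 to 42.0 CPM in T Stage IV and 83.4 to 167 CPM in T Stage III. The genes lyz and npsn, and the B cell genes blnk, cd37 and cd79a, were at 0 in all 6 of these libraries. EBF1 was 0 to 20.9 CPM in T Stage IV and at 0 in T Stage III. The 9 B cell markers summed to 318 to 690 CPM in T Stage IV and 1620 to 2580 CPM in T Stage III, and 1 of them fell; most of that sum was cd74a, at 362 ± 134 CPM in T Stage IV and 1600 ± 332 CPM in T Stage III (SD, n = 3 each). The part of these signals in the syk difference was not tested.

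In T Stage II against T Stage I, in rag2RFP-cd79aGFP, no member passed, and 0 genes of all 14423 (0%) did; 707 genes had an unadjusted p under 0.05, and DESeq2 called 880 genes, blnk among them from counts in 1 library of each group.

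T Stage II was also set against marrow B Stage I, across tissues within the rag2 lines. There 5 of 7 members fell and 0 rose, where 3.4% of all genes fell and 2.43% rose. syk had 0 to 10.0 CPM in T Stage II (6 libraries, median 0.132 CPM), against 354 to 949 CPM in B Stage I (6 libraries, median 863 CPM), a log2 fold of -8.37 (SE 0.59, adjusted p = 2.92e-29). cd37 was at least 1170-fold lower in T Stage II (adjusted p = 1.06e-21), and the log2 folds of blnk and lyn were -11.88 (SE 0.89, adjusted p = 1.31e-27) and -7.59 (SE 1.02, adjusted p = 2.74e-10). inpp5d had 15.3 ± 4.61 CPM in T Stage II and 94.6 ± 32.5 CPM in B Stage I (SD, n = 6 each), a log2 fold of -2.74 (SE 0.60, adjusted p = 0.000403). blk stood the other way, with 35.5 ± 24.2 CPM in T Stage II and 4.83 ± 8.15 CPM in B Stage I (SD, n = 6 each), a log2 fold of 2.53 (SE 1.03, adjusted p = 0.165), which passed when only the groups compared were fitted (adjusted p = 0.0215) and without B Stage I replicate 40 (log2 fold 6.10, adjusted p = 0.0359). Without replicate 1 or 26 of T Stage II the syk log2 fold was -12.41 or -10.52, without replicate 25 that of lyn was -9.06, and without replicate 26 blnk, then at 0, was at least 1660-fold lower. T Stage II libraries are shared with the thymic B comparison. Genes on the marker lists of other cells also fell in T Stage II against B Stage I. They were 10 of 17 of the kidney tubule, 7 of 18 of the myeloid and 3 of 9 of the erythroid and thrombocyte lists. The kidney tubule markers summed to 33.8 to 148 CPM in T Stage II and 351 to 2520 CPM in B Stage I, the myeloid ones to 62.8 to 260 CPM in T Stage II and 863 to 2180 CPM in B Stage I, and the erythroid and thrombocyte ones to 1.69 to 153 CPM in T Stage II and 358 to 3120 CPM in B Stage I. Within the myeloid list SPI1 was 212 to 651 CPM and NCF1 348 to 548 CPM in B Stage I. There csf1ra was 0 to 0.0776 CPM, marco 0 to 24.9 CPM, lyz 29.7 to 522 CPM and npsn 0.155 to 194 CPM. Both lyz and npsn were at 0 in all T Stage II libraries. Whether the RNA of this list came from the B cells or from other cells was not tested. The part of other cells in the members' differences was not tested either.

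How the members' levels went together over all 53 libraries is given as a description, since B and T libraries differ in most of them. Pearson's r of log2 of CPM plus 1 was 0.91 between blnk and cd37 and 0.83 between syk and blnk, and between blk and blnk it was -0.43. Within the 26 libraries of thymic B cells and B Stages I to III the pairs looked different: r was -0.25 between blnk and cd37, 0.60 between syk and blnk, and 0.59 between ptpn6 and cd37. All points share the CPM scaling, and libraries of a line share their origin.

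The genes most like each member were ranked by the same r over the 53 libraries among 6028 genes with a mean of at least 10 CPM. blnk went with PAX5 (r = 0.974), cd79a (0.955) and EBF1 (0.948), 2 transcription factors of B lineage commitment and a receptor chain. cd37 went with plaat1l (0.979) and the immunoglobulin light chain genes igl3c3 (0.965) and igic1s1 (0.96). lyn went with plaat1l (0.861), the kinase BTK (0.849) and the immunoglobulin delta gene ighd (0.845). syk went with the transcription factor MEF2C (0.876) and the histone deacetylase hdac9b (0.857).

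The widely expressed members and blk had weaker partners. inpp5d went with PLCG2 (r = 0.805), the phospholipase of the same pathway, and with the transcription factor SPI1 (0.762). ptpn6 went with the transcription factor klf2a (0.606), the poly(A)-binding gene pabpc1a (0.599) and cbx7a (0.576). For blk the highest were lmo7b (0.522), CAPG (0.521) and ZNF536 (0.519). CAPG averaged 13.9 ± 24.8 CPM over the 26 B libraries and 269 ± 141 CPM over the 18 thymic T libraries (SD). Similar 3-prime ends within the Src family, or overlapping genes, could share reads, and the strand setting is not given in the sources used here, so separate values of such genes are uncertain.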

How the data were processed

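Per the submitters' processing notes, reads were checked with FastQC 0.11.8 and handled with STAR, featureCounts and DESeq2 1.38.3 on GRCz11; the role and settings of each tool are not given in the sources used here. The deposited raw counts (14424 rows, 1 of them the gfp transgene, not tested) were used for all results, and 0 columns belonged to no library. Symbols came from a table of identifiers, which names 13909 of 14423; all 7 members matched. The label spelling "T State III" was read as T Stage III. CPM were computed over all rows. Tests used edgeR 4.0.16 in R 4.3.3 (TMM, glmQLFit with robust moderation, glmQLFTest) in 1 model of 19 group means over 53 libraries, with Benjamini-Hochberg adjustment; the filter of 10 counts in 3 libraries removed 0 rows. Alternatives were other scalings and filters, DESeq2 1.42.0, smaller fits and leaving out each library. Replicate pairs differed by far more than sampling noise (chi-square per degree of freedom 112 to 542), so none was merged. Up to 4 genes per list were named by adjusted p in thymic B against T Stage II, and 3 like genes per member by r; some items are not reported here. Members and lists were chosen with earlier results of these data known.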

Additional observations from a re-analysis of the deposited data

Results flagged for a closer look

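Among 34 sets of 1 member in 1 cell type with 6 libraries, 10 had 1 library far from the others by Dixon's test at the 95% level, where chance flags about 1 in 20 for normally distributed values. That rate does not hold for sets mostly at 0: in 3 of the 10, all libraries but 1 were at 0, and any count there is flagged. Low was syk in 1 library of B Stage I, replicate 12 of rag2RFP-cd79bGFP, at 354 CPM beside 756 to 949 CPM in the other five. High were lyn in B Stage I replicate 41 at 262 CPM (others 121 to 152), and in early T-committed cells lyn in replicate 56 at 108 CPM (others 0 to 29.7), blk in replicate 54 at 74.8 CPM (others 8.0 to 28.1), blnk in replicate 55 at 32.5 CPM (others 0 to 9.65) and cd37 in replicate 55 at 10.8 CPM (others 0 to 0.308). In T Stage I, blk in replicate 28 had 55.1 CPM (others 0 to 15.0), blnk in replicate 32 had 2.37 CPM and cd37 in replicate 27 had 6.24 CPM, each with the other five at 0. In T Stage II, blnk in replicate 26 had 4.13 CPM with the other five at 0.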

How the results depend on the processing

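No direction of a called member reversed. Counts of members called ranged, in fits without 1 library, from 0 to 1 for T Stage IV against T Stage III, 1 to 3 for T Stage III against early T-committed and for B Stage I against early B-committed, and 1 to 2 for early T-committed against early B-committed; the other 11 comparisons stayed within 1.5 times. With the older edgeR quasi-likelihood method, chosen after seeing the data, 2 members passed in thymic B against T Stage III (83 of all 14423 genes passed). The same method gave 0 in T Stage IV against T Stage III (13 of all genes) and 1 in T Stage III against early T-committed (26). In B Stage I against early B-committed it gave 0 (18 of all genes). The cause was not tested. Fitting only the groups compared gave 0, 1 and 1 in T Stage IV against T Stage III, T Stage III against early T-committed and B Stage II against B Stage I. Of all genes 33, 210 and 514 were called there. TMMwsp gave 1 in B Stage I against early B-committed (154 of all genes). DESeq2 gave 1 in T Stage II against T Stage I (880 of all 14423 genes) and 2 in T Stage IV against T Stage III (1317). It gave 1 in B Stage II against B Stage I (1282 of all genes), 1 in thymic B against B Stage II (3591) and 1 against B Stage III (3476). In early T-committed against early B-committed it gave 2 (3753 of all genes). Fitting only the groups compared left 83 genes called in thymic B against B Stage II and 19 against B Stage III (191 and 155 as reported). Over the 15 comparisons DESeq2 called 880 to 4616 genes, against 0 to 1439. The split of higher calls in thymic B against B Stage II was 27.7% and with median-ratio factors 45.6%; calls in thymic B against B Stage III became 56 higher and 60 lower (44 and 111 as reported), and in early T-committed against thymic B 434 and 399 (345 and 508). Against T Stage II the median of all genes shifted by 0.14. B-restricted members were 2 at 5 CPM and 3 when all libraries had to pass, where 1 was widely expressed. With more than 0 counts as the limit, syk joined the widely expressed members. A count of 0 allows up to 0.411 CPM. No paired analysis was run. Each replicate number belongs to 1 library, and the labels do not say whether the groups compared were sorted from the same fish.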
